A study of Mus musculus with 15 samples.

Results

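The 8 genes Stab1, Stab2, Mrc1, Cd36, Msr1, Marco, Scarb1 and Scarf1 encode scavenger and endocytic receptors of the kind found on sinus-lining endothelium and on macrophages. They were taken by name as 8 of the 45706 genes measured, whatever their values, and all 8 passed the filter on low counts that left 17650 genes for testing. Transcript abundance was measured by poly-A selected RNA sequencing in cultured lymphatic endothelial cells (LECs) from lymph nodes of female C57Bl/6 mice. These cells were Pdpn+ CD31+ CD45- cells, obtained from pooled nodes (axillary, cervical, brachial, popliteal and inguinal) and grown in MEMα with fetal bovine serum. A group of 5 libraries, lettered A to E, came from cells given no VEGF-C (unstimulated), a group of 5 from cells given 10 ng/mL and a group of 5 from cells given 100 ng/mL, in each case over 72 h. The VEGF-C was recombinant murine protein made in HEK-293E, a human kidney cell line, and all groups shared the strain, sex and medium. The culture is one of pooled nodes, so LECs of the different sinuses of the node were not separated.

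Scavenger receptors are surface proteins that bind modified lipoproteins, matrix fragments, microbial surfaces and dying cells and carry them into the cell, mostly through clathrin-coated pits. The sinusoidal endothelium of liver, spleen and lymph node is known for strong uptake of this kind, with the stabilins as its typical receptors, and the endothelium of the lymph node sinuses faces incoming lymph in the same way. Several of the genes are also typical of macrophages, among them Mrc1, Msr1 and Marco. Flt4, a receptor tyrosine kinase of LECs, is the main receptor for VEGF-C.

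Library depth lay between 27784906 and 38590841 estimated counts. The endothelial markers Flt4 (496 to 1758 CPM, counts per library total scaled by TMM), Pecam1 (1441 to 1969 CPM), Prox1 (102 to 814 CPM), Lyve1 (63.0 to 1193 CPM) and Pdpn (51.8 to 181 CPM) were present in all 15 libraries, while Ptprc, which encodes CD45, had 1.57 to 6.95 CPM. The labelled cell type was thus met by these defining markers, with Ccl21a and Mmrn1, which mark LECs in the animal, too low to pass the filter. Fibroblastic and mural markers were present too, with sums of 3225 to 4671 CPM in unstimulated cells and means of 760 CPM for Dcn and 1067 CPM for Thy1. Unstimulated library E, 10 ng/mL library D and 100 ng/mL library B stood apart from their groups on the second principal component. Their scores were -34.8, -22.5 and -36.5. Library C of the 100 ng/mL group lay at the other end, at 26.3, and was kept. Each of the 3 libraries at the low end had the lowest value of its group for 5 of the 8 receptors and for the lymphatic transcription factor Prox1. Several receptor results are given with and without them. The list counts below are from all 15 libraries, and some of those counts change without the 3. These 3 libraries were picked after the data were seen. All 3 hold the lowest Stab1, Stab2 and Cd36 of their group, so leaving them out narrows the range of these genes. Over all tested genes, their deviations from group means also correlated with each other. The values were 0.83 (unstimulated E with 10 ng/mL D), 0.59 (unstimulated E with 100 ng/mL B) and 0.45 (10 ng/mL D with 100 ng/mL B). They may thus be 1 related set, and what they share was not tested.

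Per length of transcript (RPKM, as deposited), the 8 receptors spanned a wide range in the culture, with Stab1 highest and Marco lowest in every group. Stab1 (stabilin-1) is a large endocytic receptor for the matrix protein Sparc, for chitinase-like proteins and for modified lipoproteins. It averaged 181 ± 27.0 RPKM in unstimulated cells, 181 ± 8.66 RPKM at 10 ng/mL and 214 ± 30.3 RPKM at 100 ng/mL (SD, n = 5 each), which placed it 93rd, 97th and 71st among all genes. Scarf1 came next in every group, at 32.7 ± 1.09 RPKM in unstimulated cells, 31.7 ± 2.14 RPKM at 10 ng/mL and 41.9 ± 3.91 RPKM at 100 ng/mL. The libraries of Stab1 and Scarf1 did not overlap in any group, and neither did those of Scarf1 and the gene below it.

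The order of the means below Scarf1 was not the same in the 3 groups. Between unstimulated cells and 10 ng/mL, the genes that changed places had overlapping libraries in both groups. In unstimulated cells it ran from Scarb1 (4.61 RPKM) through Msr1 (4.39 RPKM), Stab2 (3.53 RPKM), Cd36 (2.00 RPKM) and Mrc1 (0.714 RPKM) to Marco (0.402 RPKM), and the libraries of each neighbouring pair overlapped. At 10 ng/mL Stab2 stood above Msr1 and Scarb1, at 7.48, 5.29 and 4.52 RPKM, with overlap between Stab2 and Msr1 and between Msr1 and Scarb1. Scarb1 lay above Cd36 (2.86 RPKM) and Cd36 above Mrc1 (0.626 RPKM) without overlap at that dose, and Mrc1 overlapped with Marco (0.333 RPKM). At 100 ng/mL Scarb1 (5.73 RPKM) lay above all libraries of Stab2 (2.87 RPKM), followed by Cd36 (1.57 RPKM), Mrc1 (1.01 RPKM) and Msr1 (0.659 RPKM), each overlapping with the next. Marco, at 0.108 RPKM, lay below all Msr1 libraries in that group.

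**Figure D1:**
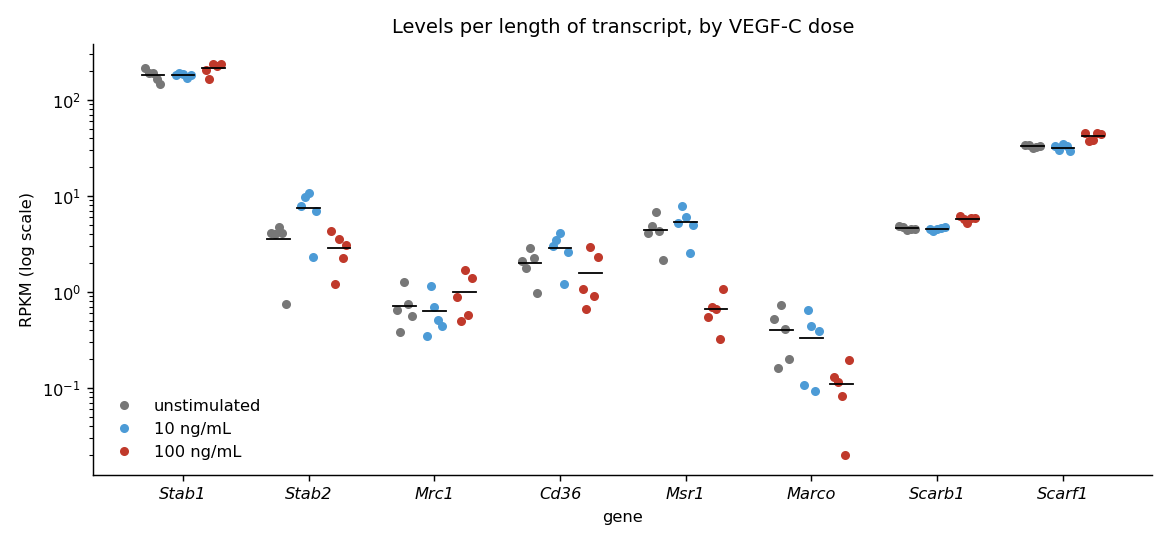
RPKM (the deposited level per length and library total, log axis) of the 8 receptors in each library, with the 3 groups side by side from unstimulated to 100 ng/mL and a black line at each mean (n = 5). Stab1 lies highest and Marco lowest in every group, and Msr1 has a mean of 4.39 RPKM in unstimulated cells, 5.29 RPKM at 10 ng/mL and 0.659 RPKM at 100 ng/mL.

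With 100 ng/mL of VEGF-C, 4 of the 8 receptors differed from unstimulated cells (adjusted p under 0.05 in edgeR's quasi-likelihood test over all tested genes). The class A receptors Msr1 and Marco fell, with log2 fold changes of -2.70 and -1.82, and the lipoprotein receptors Scarb1 and Scarf1 rose, with log2 fold changes of 0.35 and 0.40. Stab1, Stab2, Mrc1 and Cd36 did not pass the threshold. These 4 of 8 stand beside 42.9% of all tested genes called in this comparison (21.4% higher and 21.5% lower), so the share of receptors called is near that of genes at large. The groups did not overlap for 3 of the 8 (Msr1, Scarb1 and Scarf1), against 27.2% of all tested genes. The median log2 fold change of the 8 was 0.01, equal at that precision to the 0.01 of all tested genes. In these bulk cultures, fewer cells of a type and less RNA per cell cannot be told apart.

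**Figure D2:**
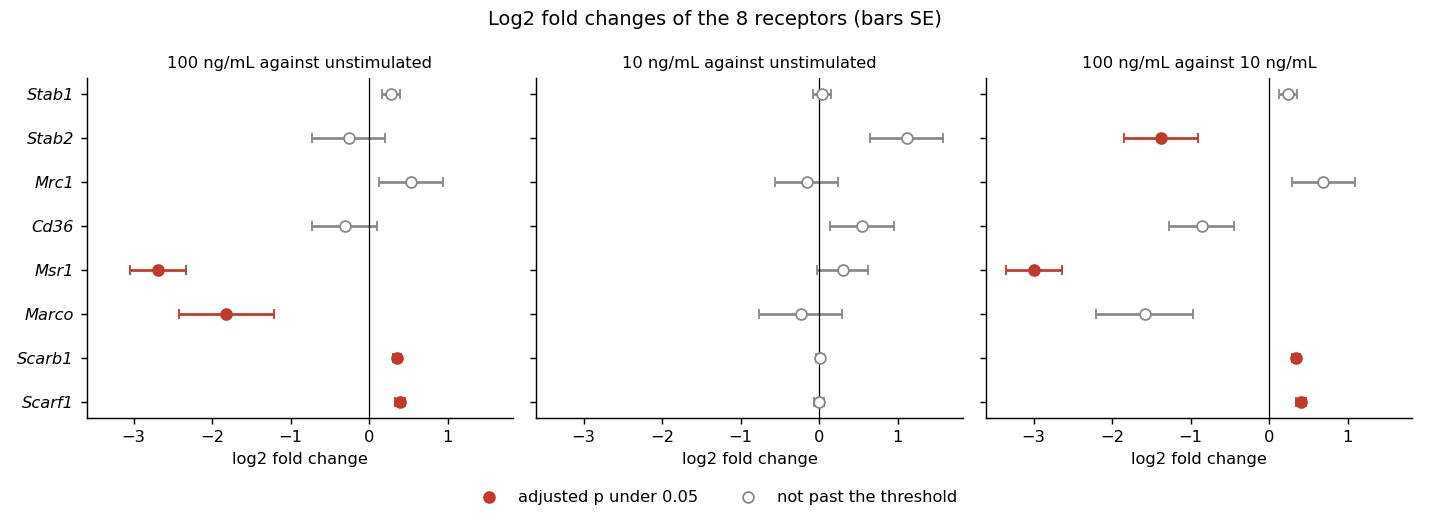
Log2 fold change (bars, SE) of each receptor in the 3 comparisons, from edgeR's quasi-likelihood fit over all genes, with filled red points where the adjusted p was under 0.05. Msr1 lies at -2.70 for 100 ng/mL against unstimulated and at -2.99 for 100 ng/mL against 10 ng/mL, and no point is filled for 10 ng/mL against unstimulated.

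Stab1 (ENSMUSG00000042286, chr14:31139013-31168641 on GRCm38, minus strand) had 4043, 3686, 3593, 3181 and 2706 CPM in unstimulated libraries A to E. It had 3509, 3691, 3661, 3250 and 3509 CPM at 10 ng/mL and 4042, 3209, 4663, 4416 and 4534 CPM at 100 ng/mL. Of the 100 ng/mL libraries, 3 lay above all unstimulated ones, and library B lay within the unstimulated range. The log2 fold change for 100 ng/mL against unstimulated was 0.28 ± 0.11 (SE), with an adjusted p of 0.0608. It passed the threshold when 100 ng/mL library B (0.36, adjusted p = 0.0103) or unstimulated library A (0.34, adjusted p = 0.0289) was left out, and without the 3 libraries that stood apart (0.28 ± 0.07, adjusted p = 0.00791). With 100 ng/mL library C left out instead, the log2 fold change of Stab1 was 0.23 (adjusted p = 0.135). Its adjusted p ran from 0.00791 to 0.151 over all alternatives. Stab1 exons overlap Nt5dc2 on the other strand, which had at most 19.6 CPM.

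Stab2 (stabilin-2, ENSMUSG00000035459, chr10:86841198-87008025, minus strand) is the receptor that clears hyaluronan, the glycosaminoglycan carried by lymph. It had 64.1, 64.8, 77.5, 67.3 and 11.7 CPM in unstimulated libraries A to E and 130, 158, 176, 37.3 and 116 CPM at 10 ng/mL. The 100 ng/mL libraries had 70.9, 20.03, 59.0, 37.6 and 50.2 CPM. Of the libraries at 10 ng/mL, 4 lay above every unstimulated and every 100 ng/mL library, and library D lay below all but 1 unstimulated and all but 1 of the 100 ng/mL libraries. The mean was 57.1 ± 25.9 CPM in unstimulated cells, 123 ± 53.5 CPM at 10 ng/mL and 47.6 ± 19.6 CPM at 100 ng/mL, and so was highest at the middle dose. For 100 ng/mL against unstimulated its log2 fold change was -0.26 ± 0.46 (adjusted p = 0.689), and without the 3 libraries that stood apart it was -0.33 ± 0.17 (adjusted p = 0.143), within a range of 0.143 to 0.92 over all alternatives. An antisense gene, Gm16268, overlaps a Stab2 exon and had at most 0.487 CPM.

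The stabilins thus differed in their ratio to each other, taken per length. Stab1 over Stab2 in RPKM was 39.4 to 53.5 in unstimulated libraries A to D and 196 in library E. At 10 ng/mL it was 17.7 to 25.6 in libraries A, B, C and E and 73.9 in library D, and at 100 ng/mL it was 48.3 to 136. The ratios of the 4 lower libraries at 10 ng/mL lay below those of all other libraries.

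Mrc1 (ENSMUSG00000026712, chr2:14229392-14332057, plus strand), the mannose receptor, binds mannose-bearing glycoproteins and collagens. It had 7.62, 4.57, 14.9, 8.97 and 6.39 CPM in unstimulated libraries A to E and 4.21, 13.9, 8.53, 6.10 and 5.35 CPM at 10 ng/mL. At 100 ng/mL it had 10.7, 5.98, 20.7, 6.97 and 16.9 CPM. Its libraries overlapped widely in every comparison, with libraries C and E of the 100 ng/mL group above all others. The log2 fold change for 100 ng/mL against unstimulated was 0.53 ± 0.40 (adjusted p = 0.314), and neither other comparison passed the threshold.

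Cd36 (ENSMUSG00000002944, chr5:17781690-17888801, minus strand) encodes a class B receptor for long-chain fatty acids, oxidised lipoproteins and thrombospondin. It had 13.9, 12.1, 19.4, 15.4 and 6.39 CPM in unstimulated libraries A to E and 20.2, 23.6, 28.2, 8.18 and 17.9 CPM at 10 ng/mL. With 100 ng/mL the values were 7.32, 4.51, 20.2, 6.28 and 15.6 CPM. The 100 ng/mL libraries formed a lower set (A, B and D) and a higher pair (C and E), and this pair was also the one with most Mrc1. For 100 ng/mL against unstimulated the log2 fold change was -0.31 ± 0.41 (adjusted p = 0.584).

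Msr1 (ENSMUSG00000025044, chr8:39581685-39642673, minus strand), the class A macrophage scavenger receptor for modified lipoproteins, had the largest fold change of the 8. It had 29.9, 35.9, 50.3, 32.4 and 15.4 CPM in unstimulated libraries A to E and 39.4, 59.3, 45.7, 19.3 and 37.8 CPM at 10 ng/mL. In the 100 ng/mL libraries Msr1 had 4.24, 5.24, 5.11, 2.48 and 8.03 CPM. All 5 libraries at 100 ng/mL lay below all 10 others. Msr1 was 6.48-fold lower at 100 ng/mL than in unstimulated cells (log2 fold change -2.70 ± 0.36, adjusted p = 2.59e-05). It kept its direction and its call in all 26 alternatives, with log2 fold changes between -2.93 and -1.66 (-2.88 without the 3 libraries that stood apart).

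Marco (ENSMUSG00000026390, chr1:120474538-120505024, minus strand) encodes a collagenous class A receptor for bacteria and particles, known from marginal zone macrophages and from LECs of the medullary sinuses. It was the lowest of the 8 per length, with 69.1, 19.4, 86.0, 47.9 and 25.7 estimated counts in unstimulated libraries A to E, or 1.82, 0.567, 2.67, 1.48 and 0.704 CPM. At 10 ng/mL it had 0.39, 2.37, 1.62, 0.336 and 1.44 CPM, and at 100 ng/mL it had 0.467, 0.434, 0.295, 0.073 and 0.712 CPM, the lowest of these resting on 2.0 counts. Of the 5 libraries at 100 ng/mL, 4 lay below all unstimulated ones, and library E overlapped with them. Marco was 3.54-fold lower at 100 ng/mL than in unstimulated cells (log2 fold change -1.82 ± 0.61, adjusted p = 0.0249). The call was lost when unstimulated library A (adjusted p = 0.0504) or C (0.0721) or 100 ng/mL library C (0.0507) or D (0.057) was left out. Without the 3 libraries that stood apart the value was -2.02 ± 0.62 (adjusted p = 0.0177), and its adjusted p ran from 0.00678 to 0.0721 over all alternatives.

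Macrophage markers moved with Msr1 and Marco. Of 25 such markers, 21 were tested, of which 18 fell at 100 ng/mL against unstimulated and 1, Cd14, rose, with a median log2 fold change of -1.79. Among all tested genes 21.5% fell and 21.4% rose. The macrophage receptor Csf1r had 1.88 ± 0.48 CPM at 100 ng/mL against 6.23 ± 2.63 CPM in unstimulated cells, and Adgre1, a defining surface marker of mouse macrophages, had 1.25 ± 0.70 CPM against 5.45 ± 2.77 CPM (SD, n = 5 each). Both fell, with log2 fold changes of -1.72 ± 0.34 for Csf1r and -2.10 ± 0.48 for Adgre1. The lysosomal marker Cd68 had 8.25 ± 1.24 CPM at 100 ng/mL and 8.52 ± 2.19 CPM in unstimulated cells and did not pass the threshold (adjusted p = 0.87). The summed level of the list lay in unstimulated cells between 105 and 295 CPM, and was 95.8 to 253 CPM at 10 ng/mL and 73.3 to 122 CPM at 100 ng/mL, and no marker of the list was at 0 in all libraries. Cd68, Cd14 and Cd163 of this list are also counted in the list of other scavenger receptors, and Spi1 among the transcription factors. Library C had the highest sum of the unstimulated group and also its highest Stab2, Mrc1, Cd36, Msr1 and Marco. The highest sum at 10 ng/mL was that of library B, which was also highest for Mrc1, Msr1 and Marco. At 100 ng/mL the highest was that of library E, also highest for Msr1 and Marco. Over all tested genes, the deviations of these libraries from their group means correlated. The values were 0.73 (unstimulated C with 10 ng/mL B), 0.42 (unstimulated C with 100 ng/mL E) and 0.40 (10 ng/mL B with 100 ng/mL E). They may therefore not be separate cases. In unstimulated library E, where Msr1 was lowest, Csf1r had 5.50 CPM, near the 5.55 CPM median of its group. Csf1r overlaps Hmgxb3 on the other strand, which reached 56.4 CPM, so the values of Csf1r are uncertain. The 100 ng/mL library with the most Mrc1 and Cd36, C, had the lowest macrophage sum of its group. Cd14, the marker that rose, averaged 39.8 CPM within these sums. By Csf1r (1.24 CPM), Adgre1 (0.511 CPM) and Ptprc (1.57 CPM) the lowest 100 ng/mL library was D, also lowest for Msr1 and Marco. Unstimulated library B had the lowest sum of its group and its lowest Mrc1 and Marco. At 10 ng/mL library A had the lowest sum and the lowest Mrc1, while library D was lowest for Msr1 and Marco. The part of the macrophage markers in the results on Msr1 and Marco was not tested.

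Scarb1 (ENSMUSG00000037936, chr5:125277087-125341094, minus strand) encodes SR-BI, the receptor through which cells exchange cholesterol with high-density lipoprotein. It had 76.1, 74.7, 70.0, 73.1 and 70.0 CPM in unstimulated libraries A to E and 72.2, 69.7, 72.7, 74.3 and 76.8 CPM at 10 ng/mL. Scarb1 in the 100 ng/mL libraries stood at 100.9, 92.1, 84.0, 95.1 and 93.0 CPM. All 5 libraries at 100 ng/mL lay above all 10 others, and these 10 lay close together. The rise against unstimulated was 1.28-fold (log2 fold change 0.35 ± 0.05, adjusted p = 3.82e-05).

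Scarf1 (ENSMUSG00000038188, chr11:75513540-75526582, plus strand) encodes SREC-I, a receptor with epidermal growth factor-like repeats that was found on endothelium and takes up acetylated lipoprotein and dying cells. It had 179, 183, 169, 176 and 171 CPM in unstimulated libraries A to E and 179, 163, 190, 179 and 162 CPM at 10 ng/mL. For 100 ng/mL the values were 249, 206, 210, 249 and 241 CPM. The 100 ng/mL libraries lay above all others here too, with B and C nearest to them. The rise against unstimulated was 1.32-fold (log2 fold change 0.40 ± 0.06, adjusted p = 0.000165). For both Scarb1 and Scarf1 the call and direction held in all 26 alternatives, with log2 fold changes of 0.26 to 0.39 for Scarb1 and 0.34 to 0.44 for Scarf1.

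**Figure D3:**
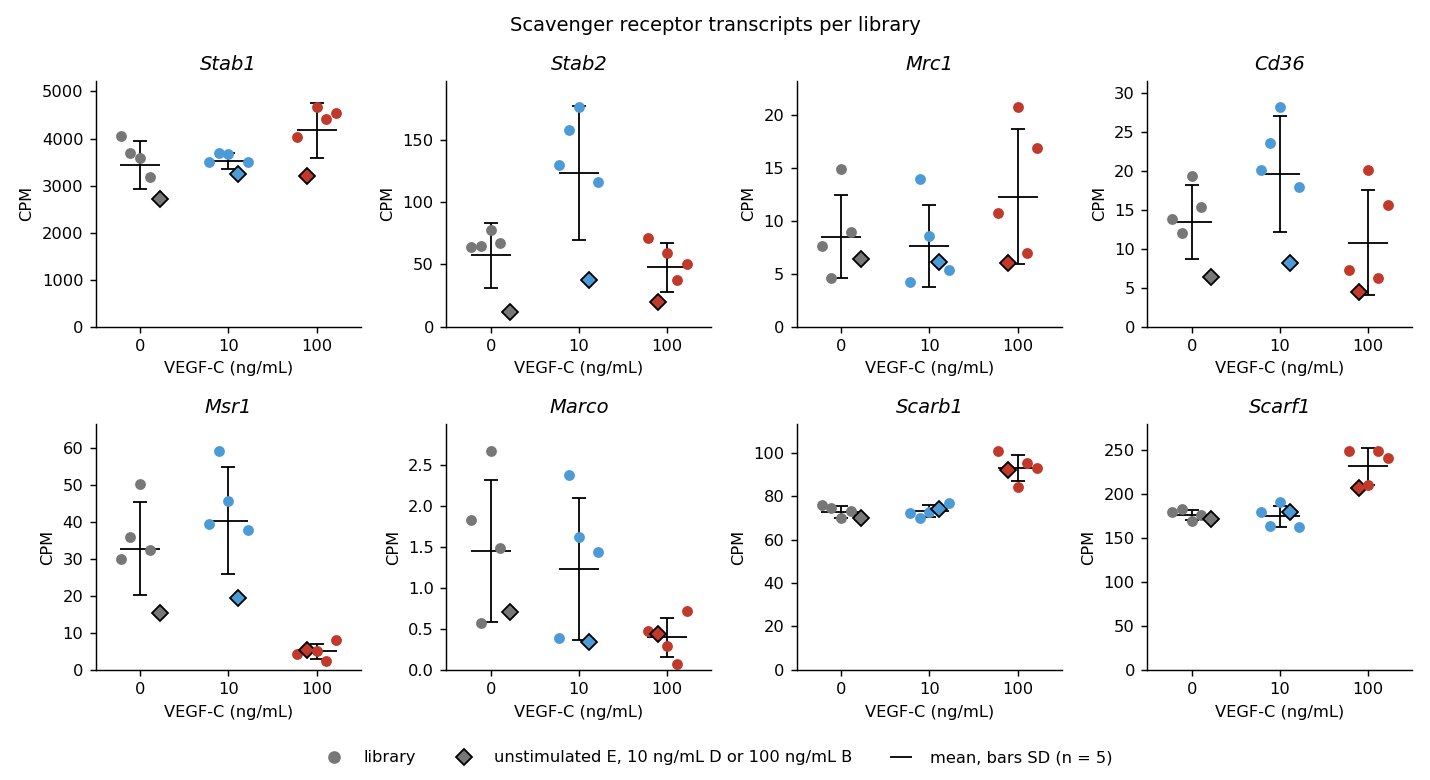
CPM of each receptor in each library (y axes from 0, scaled per gene) by VEGF-C dose, with the mean and SD of 5 libraries and diamonds for unstimulated library E, 10 ng/mL library D and 100 ng/mL library B. Msr1 has 2.48 to 8.03 CPM at 100 ng/mL, below all other libraries, and the diamond lies lowest for Stab2 in each group.

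No receptor passed the threshold for 10 ng/mL against unstimulated, nor did any of the 17650 tested genes (0% called by edgeR's quasi-likelihood test). Without adjustment 844 genes had a p under 0.05, and the DESeq2 Wald test called 7 genes and limma-voom 0. Among the receptors, Stab2 alone had an unadjusted p under 0.05 in edgeR's fit. Its log2 fold change was 1.11 ± 0.47, with an adjusted p of 0.969. Without the 3 libraries that stood apart the value was 1.08 ± 0.17 with an adjusted p of 0.127, the lowest of its alternatives (highest 1.0). Of its 5 libraries at 10 ng/mL, 4 lay above all unstimulated ones. By their deviations from group means over all tested genes, 10 ng/mL libraries A to E were nearest to unstimulated B, C, D, E and A. These correlations were 0.56 to 0.83. Stab2 in those unstimulated libraries had 64.8, 77.5, 67.3, 11.7 and 64.1 CPM, against 130, 158, 176, 37.3 and 116 CPM at 10 ng/mL. The fit did not use this pairing, seen in the same data, and a test paired in this way was not run. The other receptors had log2 fold changes of 0.55 ± 0.41 (Cd36), 0.30 ± 0.32 (Msr1), 0.03 ± 0.11 (Stab1), 0.01 ± 0.05 (Scarb1), -0.01 ± 0.06 (Scarf1), -0.16 ± 0.40 (Mrc1) and -0.24 ± 0.53 (Marco). The standard errors of Mrc1, Cd36, Stab2 and Marco at this dose were over the whole log2 rise of Scarb1 or Scarf1 at 100 ng/mL. A difference of that size in them was thus not detectable in this fit, which took the libraries as unpaired. None of the 8 had groups that did not overlap, against 1.31% of all tested genes.

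Between the doses, 4 of the 8 receptors differed, against 40.5% of all tested genes (19.9% higher and 20.6% lower at 100 ng/mL). Stab2 and Msr1 were lower and Scarb1 and Scarf1 higher at 100 ng/mL than at 10 ng/mL. The groups did not overlap for 3 of the 8, against 25.6% of all tested genes. This comparison shares its 100 ng/mL libraries with the one against unstimulated cells, and 18 of 21 macrophage markers fell and 1 rose here too. Msr1 was 7.97-fold lower (log2 fold change -2.99 ± 0.36, adjusted p = 1.18e-05), while Scarb1 and Scarf1 were 1.27-fold and 1.32-fold higher (adjusted p = 5.24e-05 and 0.00016).

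Stab2 had 47.6 ± 19.6 CPM at 100 ng/mL against 123 ± 53.5 CPM at 10 ng/mL, 2.59-fold lower (log2 fold change -1.38 ± 0.47, adjusted p = 0.0297). This call was lost in 9 of 26 alternatives, among them limma-voom (adjusted p = 0.0624), limma on log2(RPKM + 0.1) (0.0525) and the fits without library A (0.0513), B (0.0649) or C (0.0721) of the 10 ng/mL group or library B (0.0602), D (0.0682) or E (0.0517) of the 100 ng/mL group. Without the 3 libraries that stood apart it was -1.41 ± 0.18 with an adjusted p of 3.63e-05. These libraries are the lowest for Stab1, Stab2 and Cd36 in each group, so for these genes the fit without them is no independent support. Among these 3 libraries themselves Stab2 was also highest at 10 ng/mL, with 11.7 (unstimulated E), 37.3 (10 ng/mL D) and 20.03 CPM (100 ng/mL B). Marco was 3.00-fold lower without passing the threshold (-1.58 ± 0.61, adjusted p = 0.0515), and passed it in 8 of 25 alternatives, among them the fits without unstimulated library B (0.0468), C (0.0462) or E (0.049), without 10 ng/mL library A (0.0282) or D (0.0216) and without 100 ng/mL library E (0.043). Cd36 stood at -0.86 ± 0.41 (adjusted p = 0.112) and passed without 10 ng/mL library D (0.044), without 100 ng/mL library C (0.0283) and without the 3 libraries (0.0421). Stab1 stood at 0.24 ± 0.11 (adjusted p = 0.102) and passed without 100 ng/mL library B (0.0186) and without the 3 libraries (0.00624). Mrc1 (0.69 ± 0.40, adjusted p = 0.19) passed in none.

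Within a group the receptors did not vary alike. Scarb1 and Scarf1 varied little, with a coefficient of variation of 3.81% and 3.26% in unstimulated cells, 3.63% and 6.74% at 10 ng/mL and 6.56% and 9.28% at 100 ng/mL. Stab2, Mrc1, Cd36, Msr1 and Marco varied by 35.5 to 70.4%, and Stab1 by 4.95 to 14.9%. Unstimulated library E was lowest for Stab1, Stab2, Cd36, Msr1 and Scarb1, 10 ng/mL library D for Stab1, Stab2, Cd36, Msr1 and Marco, and 100 ng/mL library B for Stab1, Stab2, Mrc1, Cd36 and Scarf1. Prox1 was lowest in the same libraries, with 102, 158 and 193 CPM. Lyve1, the hyaluronan receptor of lymphatic endothelium, was instead highest of its group in unstimulated library E and 10 ng/mL library D, and lowest in 100 ng/mL library B. The part of these library differences in the results was not tested.

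**Figure D4:**
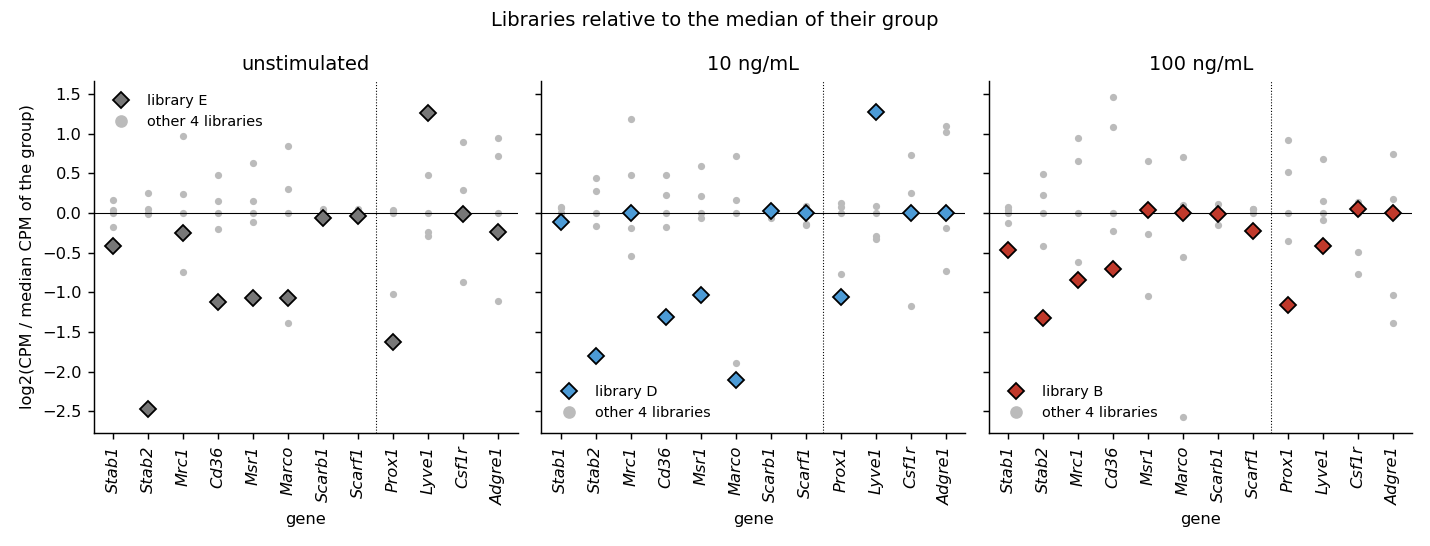
Log2 ratio of each library's CPM to the median of its group for the 8 receptors (left of the dotted line) and 4 markers, with diamonds for the libraries that stood apart. In each group the diamond lies lowest for Stab2 and for Prox1, while Scarb1 stays near 0.

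The region upstream of the start site is shown for the receptors at the top and the bottom of the order of levels, Stab1 and Marco, as the 250 bases before the RefSeq start (GRCm38.p6), read 5′ to 3′ on the strand of the gene. Stab1 lies at chr14:31168642-31168891 and Marco at chr1:120505025-120505274, both on the minus strand. Capitals mark the core AGGAAG, a sequence bound by ETS family factors, searched on both strands.
Stab1: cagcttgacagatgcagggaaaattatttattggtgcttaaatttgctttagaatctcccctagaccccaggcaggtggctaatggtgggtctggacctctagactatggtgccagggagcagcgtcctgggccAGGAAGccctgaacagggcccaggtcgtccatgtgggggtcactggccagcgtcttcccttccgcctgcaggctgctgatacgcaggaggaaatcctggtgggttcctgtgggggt
Marco: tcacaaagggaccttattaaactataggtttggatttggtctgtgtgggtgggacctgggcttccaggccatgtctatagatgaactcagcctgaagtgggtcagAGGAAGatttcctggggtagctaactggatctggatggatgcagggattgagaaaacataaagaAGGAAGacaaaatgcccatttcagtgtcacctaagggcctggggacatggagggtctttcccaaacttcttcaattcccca
RefSeq promoter sequences were matched for 5 of the 8 genes, these and Stab2, Mrc1 and Cd36. The core began 116 bases before the start in Stab1 and 145 and 81 bases before it in Marco. It also occurred 1 time in Stab2 and 3 times in Mrc1, on the other strand, and had no match in Cd36. Of all 32851 promoters of the same length, 29.5% held it. None of the 5 held the AP-1 site TGANTCA, the GATA letters AGATAA or the TATA box TATAAA in this window, which occurred in 6.75, 9.99 and 12.4% of all promoters. Stab1 had 57.2% and Marco 47.6% G and C, against a median of 52.4% over all promoters.

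Other scavenger and endocytic receptors fell more often than they rose. This list and those below were chosen with earlier results of these data known. Of 25 tested from a list of 34, 15 fell and 4 rose at 100 ng/mL against unstimulated, with a median log2 fold change of -0.88, beside 21.5% lower and 21.4% higher among all tested genes. Lyve1 rose to 804 ± 238 CPM at 100 ng/mL, against 99.6 ± 50.9 CPM in unstimulated cells (log2 fold change 3.01 ± 0.38). The lipopolysaccharide co-receptor Cd14 (1.31 ± 0.19) and the lipoprotein receptor Vldlr (1.46 ± 0.38) rose as well. Cxcl16, a membrane-bound chemokine that also binds oxidised lipoprotein, had 21.5 ± 2.01 CPM at 100 ng/mL against 46.7 ± 9.71 CPM in unstimulated cells. The phosphatidylserine-linked receptor kinase Tyro3 (-1.18 ± 0.19) and Ly75 (-1.22 ± 0.20), a mannose receptor family member, fell on the log2 scale. Among the 8 receptors themselves 2 rose and 2 fell.

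Genes for ligands of the 8 receptors, and for enzymes that make or cut those ligands, mostly fell. Of 15 tested, 10 fell and 1, the hyaluronidase Hyal2 (0.40 ± 0.09), rose, with a median of -1.13, beside 21.5% lower and 21.4% higher among all tested genes. Apoe, the apolipoprotein, had 205 ± 40.2 CPM at 100 ng/mL against 1534 ± 299 CPM in unstimulated cells (log2 fold change -2.90 ± 0.21). Tgfbi, a matrix protein bound by stabilin-1, and the hyaluronan synthase Has3 fell, with log2 fold changes of -2.44 ± 0.14 and -3.02 ± 0.18. Has3 overlaps Chtf8 on the other strand, which reached 144 CPM, so its value is uncertain.

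Signalling and trafficking partners went both ways. Of 21 partners and adaptors tested, 8 rose and 4 fell (median 0.02). For this list and the uptake genes below, the shares over all tested genes were 21.4% higher and 21.5% lower. The Src family kinase Fyn, which acts downstream of Cd36, rose to 201 ± 25.9 CPM at 100 ng/mL, against 77.1 ± 7.19 CPM in unstimulated cells. Abcg1, a transporter that passes cholesterol to high-density lipoprotein, rose to 107 ± 20.1 CPM, against 14.6 ± 3.68 CPM, and the tetraspanin Cd81 rose by a log2 fold change of 0.50 ± 0.09. The Toll-like receptor Tlr2 (-1.37 ± 0.19) and the integrin chains Itgav (-0.62 ± 0.10) and Itgb5 (-1.23 ± 0.31) fell. Of 25 genes of clathrin and caveolar uptake, 13 rose and 6 fell (median 0.18), with rises of 0.36 to 0.40 in Dnm2 (dynamin), Rab5c and Eps15. Cav1 (caveolin) had 942 ± 244 CPM at 100 ng/mL against 1625 ± 105 CPM in unstimulated cells, and Ap2b1 and Eea1 fell by 0.41 on the log2 scale.

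Of 18 transcription factors tested, chosen for sinusoidal endothelium and for control of scavenger receptors, 8 rose and 5 fell (median 0.13). The shares over all tested genes were 21.4% higher and 21.5% lower. Nr2f2, which takes part in LEC identity, rose by 0.94 ± 0.13, Cebpa by 2.00 ± 0.28 and the flow-linked factor Klf2 by 1.90 ± 0.36 on the log2 scale. Pparg, a known activator of Cd36 in macrophages, had 30.5 ± 4.82 CPM at 100 ng/mL against 48.4 ± 6.12 CPM in unstimulated cells. The sterol regulator Srebf2 fell as well, with a log2 fold change of -0.55 ± 0.11.

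Markers of the sinus LEC subsets of the lymph node split as well, with 7 of 17 up, 9 down and a median of -0.55. For these and the lymphatic markers below, 21.4% of all tested genes were higher and 21.5% lower. Kcnj8, Itih5 and Btnl9 rose by 6.81 ± 0.42, 3.25 ± 0.21 and 5.34 ± 0.41 on the log2 scale. Bmp4, the macrophage growth factor Csf1 and the integrin Itga2b fell, with log2 fold changes of -2.98 ± 0.18, -2.91 ± 0.19 and -2.05 ± 0.23. Of 10 lymphatic endothelial markers tested, 7 rose and 1, Emcn, fell. Kdr (1.64 ± 0.14), Flt4 (1.36 ± 0.12) and Cdh5 (0.67 ± 0.07) had the smallest p-values of the rises.

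Other cell types could also be held in such a culture. Their marker counts stand beside 21.4% higher and 21.5% lower among all tested genes at 100 ng/mL against unstimulated. Of 15 fibroblastic and mural markers 13 fell and none rose, and their summed level was 947 to 1391 CPM at 100 ng/mL and 3225 to 4671 CPM in unstimulated cells. Thy1 alone averaged 738 ± 65.6 CPM at 100 ng/mL and 1067 ± 93.5 CPM in unstimulated cells within these sums. Dcn, Acta2 and Tagln fell, with log2 fold changes of -4.62 ± 0.42, -4.001 ± 0.44 and -4.17 ± 0.47. Of 11 blood endothelial markers 5 rose (among them Gpihbp1, Fabp4 and Sox17) and 3 fell (Selp, Vwf and Sele), and of 2 adipocyte markers tested Fabp4 rose and Lipe fell. The part of these markers in the results on the receptors was not tested. No gene of any list passed the threshold for 10 ng/mL against unstimulated.

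**Figure D5:**
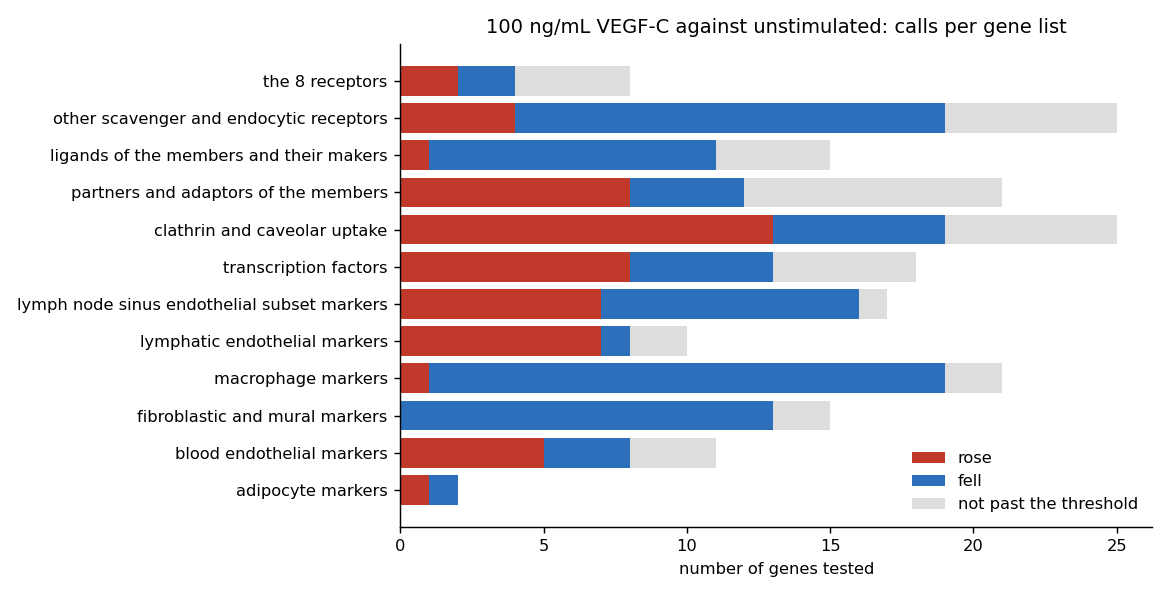
Number of tested genes of each list that rose, fell or did not pass an adjusted p of 0.05 for 100 ng/mL against unstimulated. The 8 receptors split evenly, with 2 up and 2 down, while 15 of 25 other receptors and 18 of 21 macrophage markers fell. Among all tested genes 21.4% rose and 21.5% fell.

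The genes whose profiles over the 15 libraries lay nearest to each receptor were ranked by the root mean square distance between standardised log2 CPM profiles, among 11834 named protein-coding genes with a mean of at least 1 CPM. Msr1 lay nearest to Adamts18 (0.20), Pappa (0.21) and Itga2b (0.22), and Marco to Fcgr3 (0.36), Megf10 (0.39) and Cd300a (0.39). Scarf1 lay nearest to Sox13 (0.15), Fgfr1 (0.17) and Sipa1 (0.21), and Scarb1 to Pold3, Nt5c3b and Tom1l2 (0.20 to 0.21). For Stab1 the nearest were Dis3l2, Tubgcp6 and Ralgds (0.26 to 0.29), and for Stab2 Prrc2b, Endov and Cwc25 (0.31 to 0.35). Cd36 lay nearest to Zfp251, Cir1 and Nrxn2 (0.31 to 0.32). Mrc1 had the farthest neighbours, Lrrc27, Adcy7 and the leukocyte tetraspanin Cd53 (0.52 to 0.58).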

How the data were processed

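The labels describe 15 libraries in 3 groups of 5, and the groups and letters came from the sample titles. Per the file headers, the authors deposited an RPKM value and an estimated count per gene and library in 1 table. Of these deposited estimated counts, 64.3% were not whole numbers. The RPKM deposited by the authors divides by gene length and by a library total 1.86 to 1.92 times the sum of the counts. The submitters' processing notes name FastQC, Bowtie2, limma, GRCm38 and mm10. For the read counter and its use of strand, nothing is stated (not given in the sources used here), so genes with overlapping exons or similar copies are uncertain. Apart from Stab1 and Stab2, these include the named genes Csf1r, Prox1, Cxcl16, Ly75, Has3, Cd81, Dnm2, Ap2b1, Cebpa, Nr2f2, Bmp4, Itgav, Selp, Sox17, Lipe, Tagln, Tubgcp6, Prrc2b, Cir1, Nrxn2, Lrrc27, Nt5c3b, Tom1l2 and Fgfr1. Of the receptors, Stab1 had its longest match elsewhere over 204 bases at 90.2% identity and Stab2 over 154 bases at 98.7%, while the other 6 had none of at least 100 bases at 90% identity (blast 2.17.0). A second deposited table, of genes with higher RPKM, was not used.

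Counts were rounded, filtered by filterByExpr (17650 genes), scaled by TMM and fitted with a quasi-likelihood model of group over all 15 libraries (edgeR 4.0.16, R 4.3.3). P-values were adjusted by Benjamini-Hochberg over the tested genes, at a threshold of 0.05. Levels are CPM with TMM scaling, and RPKM where genes are compared with each other. The model was tested on simulated data. Coordinates are from GENCODE M21 on GRCm38. Every receptor is named, and in each other list up to 3 called rises and 3 called falls with the smallest p, plus 9 defining markers, with 1 such gene not reported here. Cavin1 and Cavin2 were matched through their gene identifiers. The receptors and lists were chosen with earlier results of these data known. Whether libraries A to E of a group were separate cultures is not stated in the labels, and p-values therefore reflect only how far these libraries differ, which may be technical. No pair of libraries within a group agreed within sampling noise (chi-square over degrees of freedom at least 8.68). Alternatives were other scalings, filters and tests (DESeq2 1.42.0, limma 3.58.1), fits of 10 libraries, a replicate block, each library left out, and the removal of 3 libraries.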

Additional observations from a re-analysis of the deposited data

Results flagged for a closer look

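Stab2 had 11.7 CPM in unstimulated library E, far below the 64.1 to 77.5 CPM of the other 4 libraries of its group. The gap to the nearest library made up 0.797 of the group's range, above Dixon's critical value of 0.71 for 5 samples. This was the 1 value that stood out so among 24 groups of 5 libraries (8 receptors in 3 groups), and chance gives about 1 in 20. The same library had the lowest Prox1 of its group (102 CPM) and the highest Lyve1 (185 CPM).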

How the results depend on the processing

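For 100 ng/mL against unstimulated, 3 to 5 of the 8 receptors were called under every alternative, and for 10 ng/mL against unstimulated 0 under every one. For 100 ng/mL against 10 ng/mL the count was 3 to 6 under every other alternative and 7 once library E of the unstimulated, D of the 10 ng/mL and B of the 100 ng/mL group were removed, a choice made after seeing the data. No called log2 fold change changed sign under any alternative. The letters A to E did not pair the libraries: the 15 correlations of same-letter deviations ran from -0.39 to 0.17. Only 2 were over 0.1, and no library was nearest to its own letter. Libraries of different letters matched better. The 10 ng/mL libraries A to E correlated with unstimulated B, C, D, E and A at 0.65, 0.73, 0.74, 0.83 and 0.56. At 100 ng/mL the highest correlation with an unstimulated library was 0.59 (B with E). The labels give no such pairing, no fit used it, and its source was not tested. A replicate block by letter called 4 receptors for 100 ng/mL against unstimulated and 3 for 100 ng/mL against 10 ng/mL. In the latter Stab2 stood at -1.34 (adjusted p = 0.0539). Because this block followed the letters, it could not test a pairing across letters. Marco was not tested with the filter of 10 CPM in 5 libraries. Its low counts, and the spread of Mrc1, Cd36 and Stab2 between libraries, limit what differences could be seen.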
